A study of Cricetulus griseus with 9 samples.

Results

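Insulin-like growth factor (IGF), platelet-derived growth factor (PDGF) and vascular endothelial growth factor (VEGF) genes were followed in CHO-K1 cells, a clonal Chinese hamster ovary line. The set holds 9 of the 15557 genes in the deposited table and was defined by a list of mouse Ensembl identifiers. The rule uses no measured values, but the list was chosen with earlier results of these data known. Its members are Igf1 (ENSMUSG00000020053), Igf1r (ENSMUSG00000005533), Insr (ENSMUSG00000005534), Irs1 (ENSMUSG00000055980), Pdgfra (ENSMUSG00000029231), Pdgfrb (ENSMUSG00000024620), Pdgfa (ENSMUSG00000025856), Pdgfc (ENSMUSG00000028019) and Vegfa (ENSMUSG00000023951). The symbols came with that list. The deposited table holds identifiers alone.

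The cells received pre-miR-29b-1 (3 libraries), pre-miR-29a (3 libraries) or anti-miR-29a (3 libraries) with Lipofectamine RNAiMAX and were kept for 48 h. A pre-miR is a synthetic precursor that raises a microRNA. The anti-miR is an inhibitor, described in the series text as blocking both miR-29a and miR-29b-1. Cells of every group were kept in charcoal-stripped serum. Untreated cells were not analysed here, so a lower level with a pre-miR and a higher level with the anti-miR cannot be told apart. The series text does not settle whether each molecule had its own transfection experiment. If so, molecule and experiment cannot be told apart. Nothing in the labels ties libraries to separate cultures. The spread behind each p-value is that between libraries and may be technical. Named markers of the line were not available to check its identity.

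IGF-1 signals through the IGF-1 receptor, a tyrosine kinase closely related to the insulin receptor, and both receptors pass the signal to docking proteins such as IRS1. PDGF chains form dimers that act on the receptors PDGFR-alpha and PDGFR-beta and are mitogens for mesenchymal cells. PDGF-A and PDGF-C chains act chiefly on PDGFR-alpha, while PDGFR-beta is chiefly the receptor of PDGF-B and PDGF-D. VEGF-A is a secreted factor best known for driving growth of blood vessels, and its gene responds to low oxygen. MicroRNAs of the miR-29 family lower the level or translation of target mRNAs and are best known for targets in the extracellular matrix.

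Levels are FPKM (fragments per kilobase of gene model, scaled for library size). Implied reads per library, inferred from the steps between low values, were 15200000 to 20760000. They may include a scaling factor, as the scaling setting is not known. Every pre-miR library gave at least 249 implied reads for each member whose reads could be inferred, and every anti-miR-29a library at least 241. Correlations of log2 values across genes were 0.988 to 0.995 within groups. Estimated library weights ranged from 0.213 to 3.54, and the lowest belonged to pre-miR-29a replicate 1. That library had the highest value of its group for Vegfa, Pdgfra, Insr, Irs1 and Igf1r, and values for Pdgfra, Insr, Irs1 and Vegfa are also given without it.

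Transcripts of both PDGF ligands, of PDGFR-beta and of VEGF-A were lower with either pre-miR than with anti-miR-29a, and that of the IGF-1 receptor was higher. Pdgfc showed the largest difference of the set, at 55.1 ± 2.27 FPKM with pre-miR-29b-1 and 53.6 ± 2.75 FPKM with pre-miR-29a, against 144.0 ± 6.27 FPKM with anti-miR-29a (SD, n = 3 each). Insr and Pdgfra did not pass the test against anti-miR-29a with either pre-miR. Irs1 passed it with pre-miR-29a alone, a call that was lost when some single libraries were left out. Between the pre-miRs Irs1 did not pass the threshold. Igf1 was listed at 0 in all 9 libraries. From bulk RNA, fewer cells with a transcript and less of it per cell cannot be told apart.

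**Figure D1:**
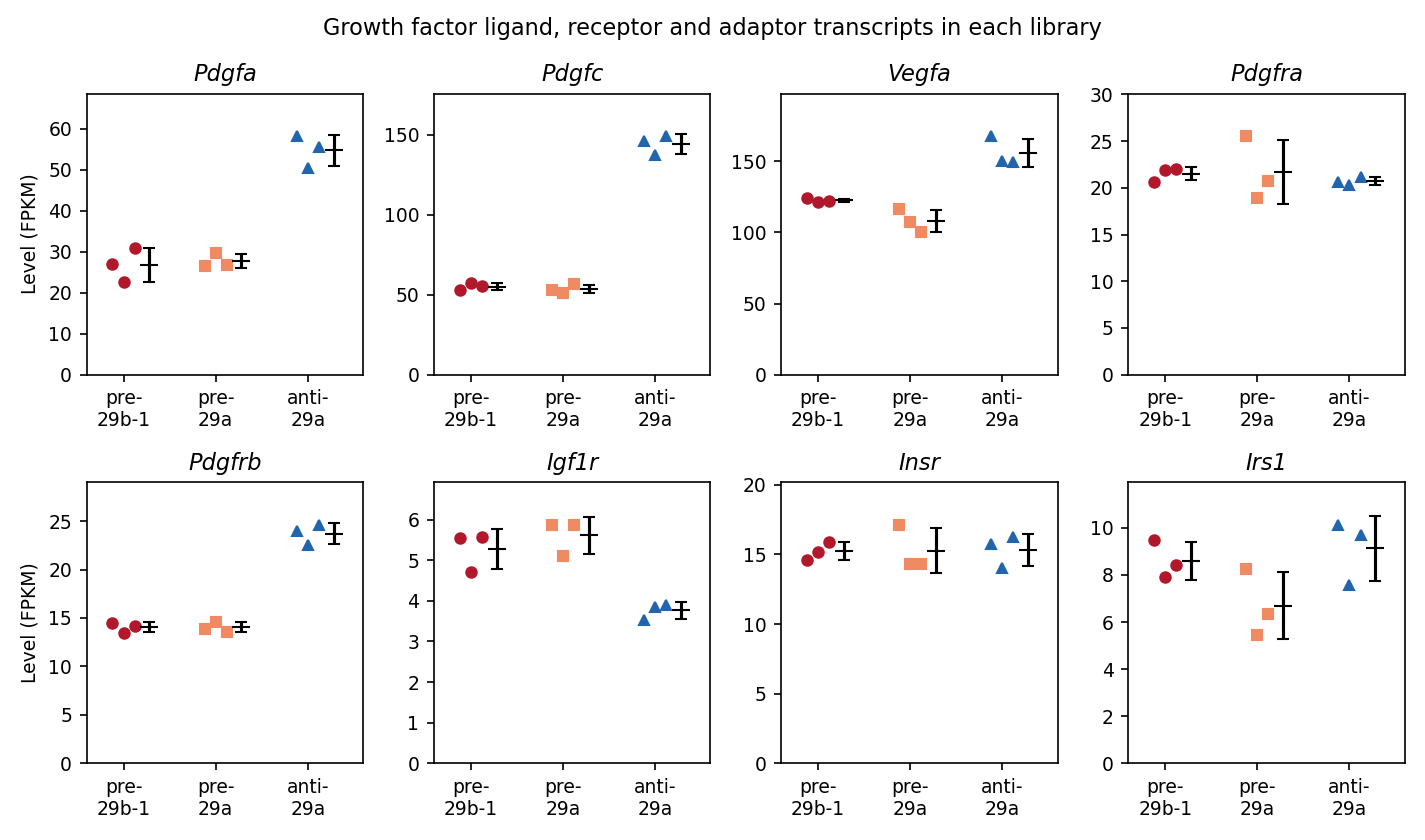
Level in FPKM (linear axes from 0) of the 8 members with values above 0, by group. Symbols are single libraries, and the bar and whiskers beside them are the mean and SD of 3 libraries. Pdgfa, Pdgfc, Vegfa and Pdgfrb lie lower in all 6 pre-miR libraries than in the anti-miR-29a libraries, and Igf1r lies higher.

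Pdgfc encodes PDGF-C, a ligand that is secreted in a latent form and activated by proteolysis. Its level was 52.6, 57.1 and 55.4 FPKM in the pre-miR-29b-1 libraries and 53.1, 51.1 and 56.5 FPKM in the pre-miR-29a libraries. The anti-miR-29a libraries held 146, 137 and 149 FPKM. The groups were far apart, and the highest pre-miR library had less than any anti-miR-29a library. On the log2(FPKM + 1) scale, on which all differences here are given and which understates changes of low genes, the difference was -1.37 (SE 0.056) for pre-miR-29b-1 and -1.41 (SE 0.056) for pre-miR-29a. The adjusted p values were 7.67e-08 and 6.00e-08 (limma, Benjamini-Hochberg over 9504 tested genes). Of those genes, 131 had a more negative difference for pre-miR-29b-1 and 153 for pre-miR-29a, so that 98.6% and 98.4% of tested genes had a more positive one. Its models on assembly CriGri_1.0 lie on scaffold JH000202 from 1387882 to 1547547 on the plus strand. The 3 models, of which 2 are distinct, have 6, 6 and 4 coding exons.

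Pdgfa encodes PDGF-A, which acts as a homodimer or joined to PDGF-B. It was measured at 27.0, 22.5 and 30.9 FPKM with pre-miR-29b-1, at 26.6, 29.6 and 26.8 FPKM with pre-miR-29a, and at 58.1, 50.5 and 55.5 FPKM with anti-miR-29a. Each pre-miR group stood at about the same level, without overlap with anti-miR-29a. The differences from anti-miR-29a were -1.01 (SE 0.10, adjusted p 2.54e-05, limma) for pre-miR-29b-1 and -0.96 (SE 0.10, adjusted p 3.13e-05, limma) for pre-miR-29a. The 95% interval of the fold on this scale was 0.423 to 0.582 with pre-miR-29b-1 and 0.438 to 0.604 with pre-miR-29a. Pdgfa has 1 model with 6 coding exons and 594 coding bases on scaffold JH000745, from 547881 to 563787 on the plus strand, and 249 to 596 implied reads per library.

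Vegfa encodes VEGF-A and was the most abundant transcript of the set. Its level was 124, 121 and 122 FPKM with pre-miR-29b-1, 116, 107 and 101 FPKM with pre-miR-29a, and 167, 150.4 and 149.7 FPKM with anti-miR-29a. All pre-miR libraries were lower than all anti-miR-29a libraries, by a smaller margin than for the PDGF ligands. The difference from anti-miR-29a was -0.34 (SE 0.063, adjusted p 0.0012, limma) for pre-miR-29b-1 and -0.52 (SE 0.063, adjusted p 6.46e-05, limma) for pre-miR-29a. More negative differences were found for 20.4% of tested genes in the pre-miR-29b-1 comparison and for 14.7% in that of pre-miR-29a, so Vegfa was not among the genes with large changes. The gene has 1 model with 7 coding exons on scaffold JH000276, from 1820299 to 1829904 on the minus strand, and 978 to 1689 implied reads per library.

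Igf1 encodes the ligand IGF-1. Its value was 0 FPKM in each of the 3 pre-miR-29b-1, the 3 pre-miR-29a and the 3 anti-miR-29a libraries. It was the single member without a value above 0, and no difference was computed for it. The gene carries 3 identical models of 450 coding bases on scaffold JH000172, from 741078 to 790771 on the plus strand. Of the 3638 genes with identical models, 3107 had a value above 0 in at least 1 library and 531 had none. In all, 2181 genes of the table were listed at 0 in all 9 libraries. Whether the zero of Igf1 reflects lack of transcript or lack of an estimate was not tested.

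Among the receptors, Pdgfrb, which encodes PDGFR-beta, was lower with both pre-miRs. It was measured at 14.5, 13.5 and 14.2 FPKM with pre-miR-29b-1, at 13.9, 14.6 and 13.6 FPKM with pre-miR-29a, and at 24.0, 22.5 and 24.6 FPKM with anti-miR-29a. Libraries of the pre-miR groups interleaved with each other and lay well under the anti-miR-29a libraries. The difference from anti-miR-29a was -0.71 (SE 0.060, adjusted p 7.05e-06, limma) for pre-miR-29b-1 and -0.72 (SE 0.060, adjusted p 5.73e-06, limma) for pre-miR-29a. Pdgfrb has 2 identical models with 22 coding exons on scaffold JH000650, from 365748 to 385304 on the minus strand.

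Pdgfra encodes PDGFR-alpha, the receptor of PDGF-A and PDGF-C. It stood at 20.7, 21.9 and 22.0 FPKM with pre-miR-29b-1, at 25.5, 18.9 and 20.7 FPKM with pre-miR-29a, and at 20.6, 20.3 and 21.2 FPKM with anti-miR-29a. The groups overlapped, and pre-miR-29a replicate 1 was the highest library. The differences from anti-miR-29a were 0.054 (SE 0.093) for pre-miR-29b-1 and 0.056 (SE 0.093) for pre-miR-29a. Their adjusted p values were 0.647 and 0.628 (limma). Without pre-miR-29a replicate 1 the difference for pre-miR-29a was -0.061 (adjusted p 0.397, limma), so its sign rests on that library. The 95% intervals ran from 0.899-fold to 1.199-fold for pre-miR-29b-1 and from 0.900-fold to 1.20-fold for pre-miR-29a, and did not reach the 0.610-fold and 0.608-fold of Pdgfrb. The gene has 1 model with 22 coding exons on scaffold JH003700, from 10918 to 42819 on the minus strand.

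The order of the PDGF receptors by level therefore differed between groups. Pdgfrb was at 0.703, 0.615 and 0.646 of the Pdgfra level in the pre-miR-29b-1 libraries and at 0.545, 0.772 and 0.655 in the pre-miR-29a libraries. In the anti-miR-29a libraries the ratio was 1.16, 1.11 and 1.16. Pdgfra was thus the more abundant receptor transcript per coding length in all 6 pre-miR libraries, and Pdgfrb in all 3 anti-miR-29a libraries. The ratio was 0.655 ± 0.044 in the pre-miR-29b-1 libraries and 0.657 ± 0.113 in the pre-miR-29a libraries, against 1.15 ± 0.031 with anti-miR-29a (SD, n = 3 each). For both pre-miRs against anti-miR-29a the difference of the log2 ratio was -0.81, with a two-sided exact permutation p of 0.0119, the smallest that 84 regroupings can give. Ratios were chosen after the values were seen. Over the 12 tests of 3 ratios in 4 comparisons, the adjusted p of this exact permutation test was 0.0714, which does not pass 0.05. For each pre-miR alone the exact permutation p was 0.1, the smallest that 3 against 3 libraries allow.

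The level of the PDGF ligands relative to each other was compared in the same way, and the difference did not pass after adjustment. Pdgfc over Pdgfa was 2.09 ± 0.39 in the pre-miR-29b-1 libraries and 1.94 ± 0.20 in the pre-miR-29a libraries, against 2.64 ± 0.11 with anti-miR-29a (SD, n = 3 each). The highest pre-miR-29b-1 library, at 2.54, overlapped the lowest anti-miR-29a library, at 2.51. For both pre-miRs the difference of the log2 ratio was -0.40, with an exact permutation p of 0.0357 and 0.143 after adjustment. It ranged from -0.46 to -0.35 when single libraries were left out, with exact permutation p values up to 0.0714.

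**Figure D2:**
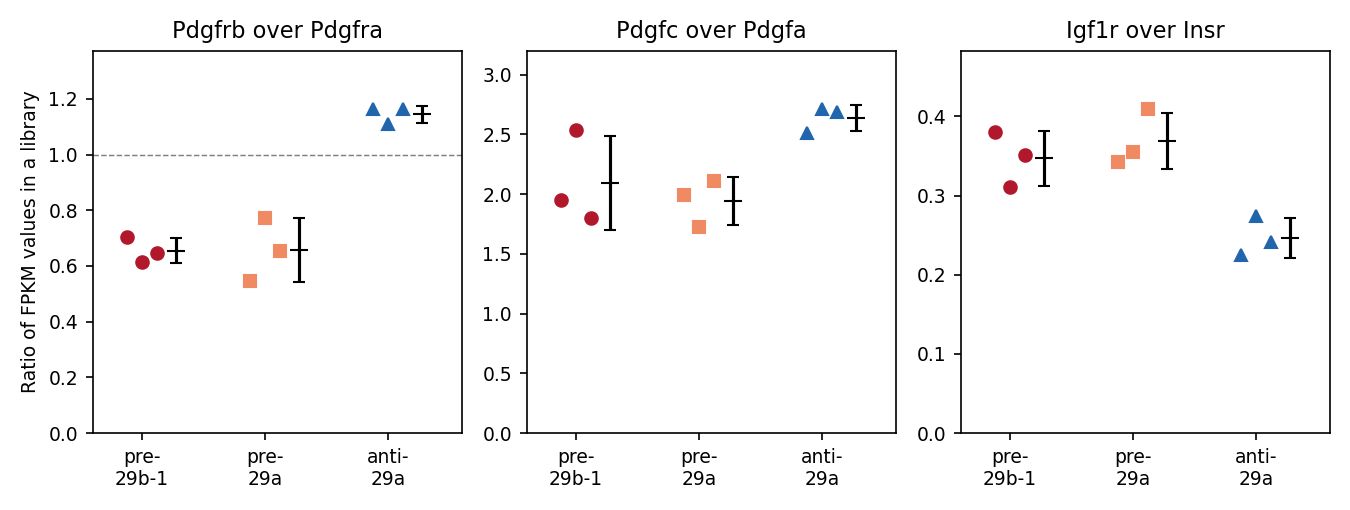
Ratio of FPKM values within each library (linear axes from 0) for Pdgfrb over Pdgfra, Pdgfc over Pdgfa and Igf1r over Insr, by group. Symbols are libraries, with the mean and SD of 3 beside them, and the dashed line marks equal levels of Pdgfrb and Pdgfra. Pdgfrb over Pdgfra is under 1 in the 6 pre-miR libraries and above 1 with anti-miR-29a.

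Igf1r, the gene of the IGF-1 receptor, was the member that was higher with both pre-miRs than with anti-miR-29a. It was measured at 5.55, 4.72 and 5.58 FPKM with pre-miR-29b-1, at 5.87, 5.10 and 5.87 FPKM with pre-miR-29a, and at 3.53, 3.85 and 3.91 FPKM with anti-miR-29a. The lowest pre-miR library lay above the highest anti-miR-29a library. The difference was 0.40 (SE 0.093, adjusted p 0.00488, limma) for pre-miR-29b-1 and 0.47 (SE 0.093, adjusted p 0.00165, limma) for pre-miR-29a. With a pseudocount of 0.1 in place of 1 it was 0.56 for pre-miR-29a, and with 5 it was 0.28. This was the lowest of the members with values above 0, with more expression than 9.15% of tested genes and 241 to 475 implied reads per library. Its 23 coding exons on scaffold JH000463, from 731242 to 1015318 on the minus strand, include blocks as short as 9 bases. Whether such short blocks are true exons was not tested.

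Insr encodes the insulin receptor. Its level was 14.6, 15.2 and 15.9 FPKM with pre-miR-29b-1, 17.1, 14.3 and 14.3 FPKM with pre-miR-29a, and 15.7, 14.1 and 16.2 FPKM with anti-miR-29a. The groups overlapped almost fully. The difference from anti-miR-29a was -0.0075 (SE 0.084, adjusted p 0.947, limma) for pre-miR-29b-1 and -0.0081 (SE 0.084, adjusted p 0.941, limma) for pre-miR-29a. Without pre-miR-29a replicate 1 that for pre-miR-29a was -0.088 (adjusted p 0.312, limma). The 95% interval of the fold reached from 0.874 to 1.13 with pre-miR-29b-1 and from 0.873 to 1.13 with pre-miR-29a. Its single model has 21 coding exons on scaffold JH000841, from 48145 to 156481 on the minus strand, with 858 to 1280 implied reads per library.

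Igf1r over Insr was accordingly higher with the pre-miRs, at 0.347 ± 0.035 in the pre-miR-29b-1 libraries and 0.369 ± 0.035 in the pre-miR-29a libraries, against 0.247 ± 0.025 with anti-miR-29a (SD, n = 3 each). Insr was the more abundant of these related receptors in every library. For both pre-miRs the difference of the log2 ratio was 0.54, with an exact permutation p of 0.0119 and 0.0714 after adjustment. Reads shared between related receptors were not examined here, since the files hold no sequence.

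Irs1 encodes the docking protein that links the insulin and IGF-1 receptors to phosphatidylinositol 3-kinase. It stood at 9.47, 7.90 and 8.44 FPKM with pre-miR-29b-1, at 8.25, 5.46 and 6.35 FPKM with pre-miR-29a, and at 10.1, 7.56 and 9.70 FPKM with anti-miR-29a. Both pre-miR groups overlapped the anti-miR-29a libraries, and within-group spread was the widest of the set for pre-miR-29a and anti-miR-29a, at 21.3% and 15.1% of the mean. In every group replicate 1 held the highest Irs1 value and replicate 2 the lowest. Each pre-miR-29a library was lower than the anti-miR-29a library of the same number. Whether libraries are paired by number was not tested. The difference was -0.071 (SE 0.14, adjusted p 0.696, limma) for pre-miR-29b-1 and -0.41 (SE 0.14, adjusted p 0.0339, limma) for pre-miR-29a. The call with pre-miR-29a ended without pre-miR-29a replicate 2 (-0.29, adjusted p 0.119, limma) or replicate 3 (-0.38, adjusted p 0.0876, limma). It also ended without anti-miR-29a replicate 1 (-0.33, adjusted p 0.111, limma) or replicate 3 (-0.36, adjusted p 0.102, limma). Without pre-miR-29a replicate 1 the difference was -0.55 (adjusted p 0.0055, limma). Irs1 is a single coding exon of 3702 bases on scaffold JH002040, from 164167 to 167868 on the plus strand, and held 383 to 728 implied reads per library.

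**Figure D3:**
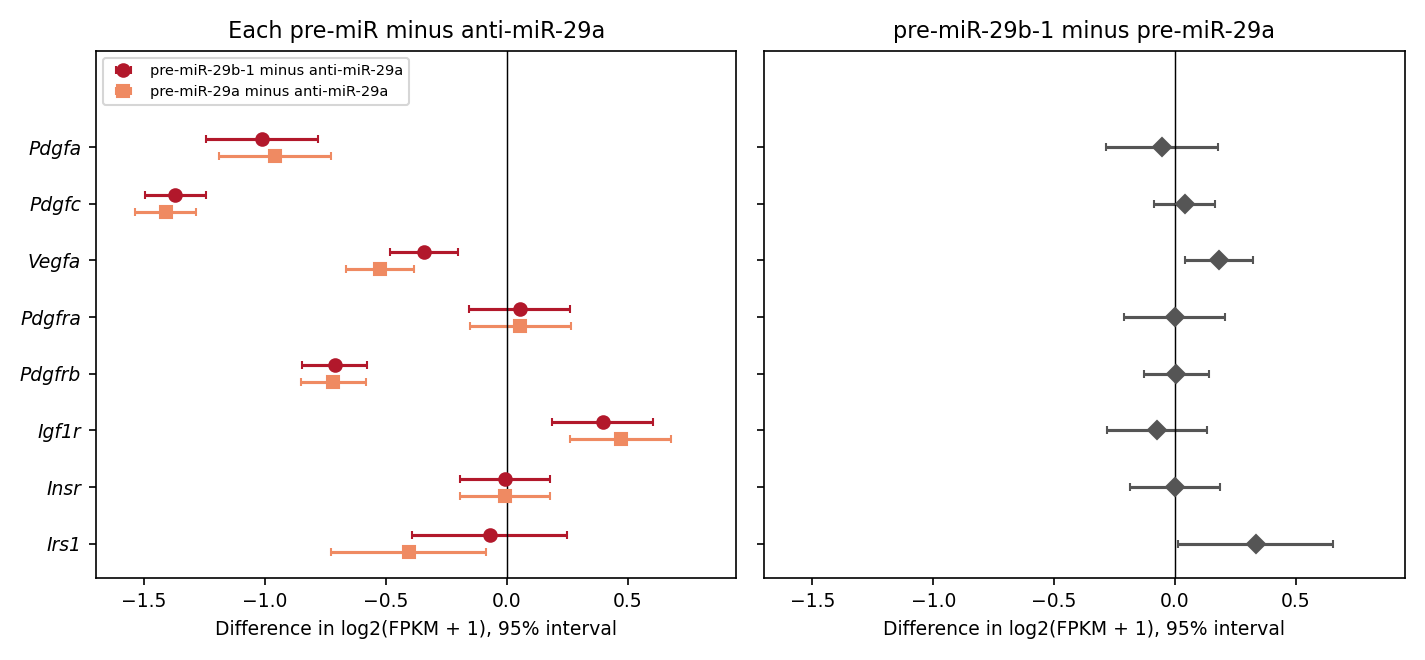
Difference in log2(FPKM + 1) with its 95% interval from limma for the 8 tested members, for each pre-miR minus anti-miR-29a (left) and for pre-miR-29b-1 minus pre-miR-29a (right). On the left, Pdgfc is farthest below 0 at -1.37 and -1.41, and Igf1r lies above 0. On the right, intervals of 6 members include 0. These intervals are not adjusted for multiple tests, and none of the 8 members passed the threshold there.

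Counted over the set, 8 of the 9 members reached a mean of 1 FPKM and were tested. Set against anti-miR-29a, with pre-miR-29b-1 4 were lower and 1 higher, which is 50.0% and 12.5% of the tested members. Over all tested genes 29.4% were lower and 25.8% higher (limma, adjusted p under 0.05). With pre-miR-29a, 5 were lower and 1 higher, or 62.5% and 12.5%, against 30.9% and 27.5% of all tested genes. For both pre-miRs together the numbers were 4 and 1, against 32.3% and 29.3% of all tested genes. With quantile normalization the balance over all tested genes turned, to 25.9% lower and 33.4% higher for pre-miR-29b-1, 26.3% and 35.2% for pre-miR-29a, and 27.6% and 37.2% for both. Under that normalization 4 members were lower and 1 higher in each of these comparisons. Changes were thus common in this series, and a count over 8 genes shows little beyond that background.

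Libraries did not overlap between groups for 5 members, or 62.5%, in each comparison of a pre-miR with anti-miR-29a. All tested genes together showed a share of 67.6% for pre-miR-29b-1 and 62.2% for pre-miR-29a, so the members' share was near the background. The median difference over the members was -0.21 for pre-miR-29b-1 and -0.46 for pre-miR-29a, against -0.006 and -0.016 over all tested genes. The median absolute difference was 0.37 and 0.50 over the members, against 0.24 and 0.26 over all tested genes. Since the anti-miR-29a libraries enter both comparisons, these are not independent.

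**Figure D4:**
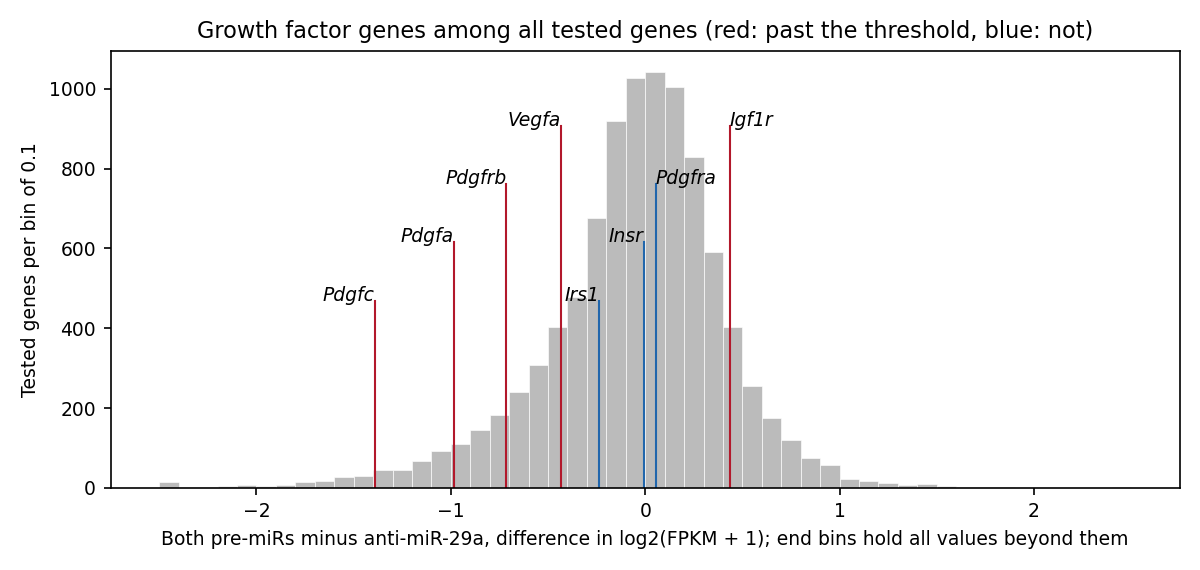
Number of tested genes per bin of 0.1 by the difference in log2(FPKM + 1) between both pre-miRs and anti-miR-29a, with lines at the 8 tested members (red where past the threshold, blue where not). The height of a line carries no value. Pdgfc, at -1.39, lies in the lower tail, and Insr, at -0.0078, near the centre.

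By level, the order was Vegfa, Pdgfc, Pdgfa, Pdgfra, Insr, Pdgfrb, Irs1 and Igf1r with either pre-miR, and Vegfa, Pdgfc, Pdgfa, Pdgfrb, Pdgfra, Insr, Irs1 and Igf1r with anti-miR-29a. Neighbours in this order did not overlap in range, except Insr with Pdgfrb and Irs1 with Igf1r under pre-miR-29a. With anti-miR-29a, Vegfa at 149.7 to 167 FPKM and Pdgfc at 137 to 149 FPKM were nearly equal, whereas with the pre-miRs Vegfa was far above Pdgfc. Averaged over all 9 libraries, Vegfa was above 81.9% and Pdgfc above 72.4% of tested genes.

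The pre-miR-29b-1 libraries were then compared with the pre-miR-29a libraries. None of the 8 members passed the threshold (limma), where 0.0105% of all tested genes did. An unadjusted p under 0.05 was found for 2 members, or 25.0%, and for 16.5% of all tested genes (limma). The 2 were Vegfa and Irs1, both higher with pre-miR-29b-1 than with pre-miR-29a. Vegfa averaged 122.5 ± 1.27 FPKM with pre-miR-29b-1 and 108.0 ± 7.84 FPKM with pre-miR-29a (SD, n = 3 each). Its difference was 0.18 (95% interval 0.041 to 0.32, adjusted p 0.236, limma). It was the single member without overlap between the pre-miR groups, which 18.9% of all tested genes showed.

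Irs1 averaged 8.60 ± 0.80 FPKM with pre-miR-29b-1 and 6.69 ± 1.42 FPKM with pre-miR-29a (SD, n = 3 each). Its difference was 0.33 (95% interval 0.013 to 0.66, adjusted p 0.294, limma). Without pre-miR-29a replicate 1, both members passed the threshold, Vegfa at 0.24 (adjusted p 0.0371, limma) and Irs1 at 0.48 (adjusted p 0.045, limma). In that fit 14.5% of all tested genes passed. With library weights they also passed, at 0.26 (adjusted p 0.00359, limma) and 0.33 (adjusted p 0.0179, limma), as did 38.2% of all tested genes, so these calls are not particular to the members. Over these alternatives and the others run, the adjusted p (limma) ranged from 0.00359 to 0.619 for Vegfa and from 0.0179 to 0.64 for Irs1.

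For the other 6 tested members the 95% interval of the fold between the pre-miRs lay between 0.821 and 1.15. The narrowest were those of Pdgfc, at 0.942 to 1.12, and Pdgfrb, at 0.914 to 1.10. Differences beyond these bounds were outside the intervals, and smaller ones could not be told from the spread between libraries.

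Among the members, the profiles over the 9 libraries were most alike for Insr and Pdgfra, with a root mean square difference of 0.064 between centred log2(FPKM + 1) values. Genes that differ little between groups lie close by this measure, and neither of these passed against anti-miR-29a. Both were highest in pre-miR-29a replicate 1, the library of lowest weight. The member profiles were least alike for Igf1r and Pdgfc, at 0.87. Among all other tested genes, the profiles nearest to Pdgfc were those of ENSMUSG00000036817, at 0.047, and ENSMUSG00000034908, at 0.050. The files and the reference table give no names for these identifiers. ENSMUSG00000036817 stood at 45.6 ± 2.01 FPKM with pre-miR-29b-1 and 43.7 ± 2.51 FPKM with pre-miR-29a, against 115 ± 5.06 FPKM with anti-miR-29a (SD, n = 3 each). ENSMUSG00000034908 stood at 24.6 ± 1.57 FPKM with pre-miR-29b-1 and 24.9 ± 0.93 FPKM with pre-miR-29a, against 68.2 ± 1.86 FPKM with anti-miR-29a.

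The profiles nearest to Igf1r were those of ENSMUSG00000021281, at 0.056, and ENSMUSG00000066440, at 0.057. ENSMUSG00000021281 stood at 17.2 ± 1.62 FPKM with pre-miR-29b-1 and 18.1 ± 0.58 FPKM with pre-miR-29a, against 13.6 ± 0.18 FPKM with anti-miR-29a (SD, n = 3 each). ENSMUSG00000066440 stood at 22.3 ± 1.04 FPKM with pre-miR-29b-1 and 23.3 ± 2.02 FPKM with pre-miR-29a, against 16.6 ± 0.56 FPKM with anti-miR-29a. These genes were picked for their likeness, so their direction is not separate evidence.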

How the data were processed

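The authors deposited FPKM values for each gene and library. The submitters' processing notes name FastQC, TopHat2 2.0.13 and Cuffnorm. Which version of Cuffnorm and which scaling or strand setting were used is not given in the sources used here. Per the file headers, gene models are mouse Ensembl proteins aligned to the hamster assembly CriGri_1.0. Of model lengths, 99.87% were multiples of 3, so models are coding sequence without untranslated regions, and reads there were not counted. No member shared exon bases with another gene.

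Of the 15557 identifiers, 0 were found in the RefSeq table for CriGri-PICRH-1.0, which lists 32251 genes, so a wider pathway list given by symbol could not be counted, and no sequence was available to print.

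Implied reads were inferred from long genes (3000 coding bases or more) that had 1 unshared model. For values of 5 reads or fewer in these, 99.1% to 100.0% were whole to within 0.2 reads. They are in the unit Cuffnorm divided by and are given for members with 1 model.

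The test was limma 3.58.1 (R 4.3.3) with a variance trend. It was fitted to log2(FPKM + 1) of all 9 libraries, for the 9504 genes that averaged 1 FPKM or more. Tests were two-sided, with p adjusted by Benjamini-Hochberg within a comparison, at a threshold of 0.05. The fit was checked on simulated data. Ratios within a library used exact permutation tests without a pseudocount. Likeness was sought for the called members farthest below and farthest above anti-miR-29a for both pre-miRs, taking the 2 nearest genes each. Members, lists and tests were chosen with earlier results of these data known. Alternatives changed the pseudocount, filter, scaling, variance model, library weights, replicate block and the libraries fitted, with each library omitted in turn as well.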

Additional observations from a re-analysis of the deposited data

How the results depend on the processing

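The number of members past the threshold against anti-miR-29a was 5 for pre-miR-29b-1 (4 to 5 over the alternatives), 6 for pre-miR-29a (5 to 6) and 5 for both (4 to 6). A filter at 5 FPKM gave the lowest counts by removing Igf1r from the test, and for pre-miR-29a the loss of Irs1 gave the same count of 5. Pdgfa, Pdgfc, Pdgfrb and Vegfa stayed lower and past the threshold under all alternatives run, and Igf1r higher in all that tested it. For single members, 580 values under alternatives kept their side of the threshold, 8 lost a call (Irs1 with pre-miR-29a) and 8 gained one (Irs1 or Vegfa). No ratio passed after adjustment. By its unadjusted exact permutation p, Pdgfc over Pdgfa passed 0.05 with all libraries and missed it in 7 of 11 alternatives. Irs1 with pre-miR-29a lost its call also without a filter (adjusted p 0.0659, limma), with quantile normalization (0.0527), without moderation (0.0843) and with the groups compared alone (0.0558). Irs1 kept that call in 11 of 19 alternatives, among them array weights (adjusted p 0.00091, limma) and the replicate block (0.0030). For both pre-miRs it gained one, from 0.122, with array weights (0.00441), the replicate block (0.0191), and without pre-miR-29a replicate 1 (0.0269) or anti-miR-29a replicate 2 (0.0433).

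Between the pre-miRs, 0 members passed, but 2 with array weights and 0 to 2 without 1 library. Over all genes the count was 1. It was 3627 under array weights, 184 under the replicate block, 0 without moderation and 0 for the groups compared alone. Leaving out 1 library gave 1 to 1378, the last of these when pre-miR-29a replicate 1 was left out. The cause was not tested. Quantile normalization turned the balance of all changed genes against anti-miR-29a: from 2451 higher and 2795 lower to 3177 and 2466 with pre-miR-29b-1, from 2613 and 2940 to 3348 and 2497 with pre-miR-29a, and from 2783 and 3074 to 3534 and 2621 with both. Same-numbered libraries deviated together with r of -0.018 to 0.295 across genes, over 0.1 in 6 of 9 pairs. Their mean r was 0.134. The 18 other pairs between groups averaged -0.0672. Deviations were taken from group means, so this second mean largely follows from the first and adds no evidence. All 9 libraries were closest to their own number in at least 1 other group and 4 in both, a hint of pairing that was not tested against chance. The labels name no shared batch and r was not over 0.1 in every pair, so the block was kept as an alternative. Among members with inferred reads, Pdgfa and Igf1r had the fewest, down to 249 and 241 per library.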
